A study of Mus musculus with 6 samples.

Results

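Tubulin genes were followed in Pml knockout and wild-type mouse embryonic stem cells. Of 24421 genes with values in the deposited table, 10 were taken by symbol, the alpha-tubulin genes Tuba3a, Tuba3b, Tuba1a, Tuba1b and Tuba1c and the beta-tubulin genes Tubb2a, Tubb2b, Tubb4b, Tubb5 and Tubb6. They were selected on their CPM and fold changes in this same comparison, which earlier results had shown, so their values are given as a description, with no p-value. Where it is said which of them the fit over all genes called, that is part of the description and supports nothing. The 2 groups were 3 libraries of Pml-/- cells and 3 libraries of wild-type cells, all of the E14 line. Both were cultured in serum with leukemia inhibitory factor, the GSK3 inhibitor CHIR99021 and the MEK inhibitor PD0325901, and polyadenylated RNA was sequenced. Pml codes for the protein around which PML nuclear bodies assemble. The labels name no separate cultures or clones, and the knockout columns share 1 name prefix, so the p-values speak for variation among these 6 libraries alone, which could be technical. These are bulk samples, in which fewer cells carrying a transcript and less RNA per cell cannot be told apart.

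Alpha- and beta-tubulin form the dimers that polymerise into microtubules, the filaments of the mitotic spindle, of intracellular transport and of the axoneme of cilia and sperm tails. Mammals encode each in a family of near-identical genes, whose proteins differ most in the acidic C-terminal tail that protrudes from the filament and carries many modifications. Tuba3a and Tuba3b are the testis-type alpha-tubulins, whereas the Tuba1 genes and Tubb5 serve most dividing cells. Cells also adjust tubulin mRNA: when free dimers are in excess, a factor encoded by Ttc5 binds nascent tubulin and triggers decay of the message.

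The libraries held 5845653 to 8693079 counted reads in knockout cells and 9389186 to 11046725 in wild-type cells. Levels are in CPM, a gene's read number after scaling every library to one common total. Fold changes are knockout over wild type after log2(CPM + 1), where the added 1 shrinks differences of weakly expressed genes. Pml itself stood at 76.3 ± 0.912 CPM in knockout cells and 191 ± 4.09 CPM in wild-type cells (SD, n = 3 each; log2 fold change -1.31, limma adjusted p = 1.28e-20). Of 8 embryonic stem cell markers, all were tested, 1 passed, Tdgf1, and their summed level was 7034 to 7202 CPM in knockout libraries and 6867 to 7036 CPM in wild-type libraries. Among 12435 genes tested, 14.0% were called at a limma adjusted p under 0.05, 7.49% lower and 6.54% higher in the knockout.

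How far the copies can be told apart matters for every value below, so ends of coding sequences that encode the tails are shown first. The last 60 coding bases, stop codon included, come from the GENCODE M21 transcripts (mm10), with capitals marking bases that do not match Tuba3a in an alignment of the whole coding sequences.
Tuba3a: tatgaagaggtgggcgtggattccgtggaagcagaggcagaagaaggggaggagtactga
Tuba3b: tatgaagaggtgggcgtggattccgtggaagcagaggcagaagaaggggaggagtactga
Tuba1c: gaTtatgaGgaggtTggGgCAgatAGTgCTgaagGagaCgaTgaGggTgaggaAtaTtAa
Tuba3a and Tuba3b did not differ at any of these bases, and their whole coding sequences were 97.0% identical over 1353 bases. Of the last 60 coding bases of Tuba1c, 19 did not match Tuba3a in that alignment, a number that leaves out bases Tuba1c lacks. The Tuba1 coding sequences were 83.4% to 83.9% identical to that of Tuba3a. Among themselves the Tuba1 coding sequences were 97.1% to 98.3% identical.

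The beta-tubulin ends are shown in the same way, with capitals marking bases that do not match Tubb5.
Tubb5: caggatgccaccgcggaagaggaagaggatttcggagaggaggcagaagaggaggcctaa
Tubb4b: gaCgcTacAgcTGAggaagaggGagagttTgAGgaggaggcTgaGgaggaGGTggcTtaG
Tubb2a: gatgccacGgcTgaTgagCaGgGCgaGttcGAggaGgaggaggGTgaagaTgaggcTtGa
Tubb2b: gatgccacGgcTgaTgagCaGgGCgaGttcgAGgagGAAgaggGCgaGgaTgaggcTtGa
Tubb2a and Tubb2b were 96.5% identical over their coding sequences, and Tubb4b was 82.4% identical to Tubb5. In windows of 50 bases, 64.7% of the Tuba3a transcript and 70.5% of the Tuba3b transcript occurred in the transcript of no other annotated gene. That share was 24.5%, 16.9% and 39.0% for Tuba1a, Tuba1b and Tuba1c, 50.4% and 60.7% for Tubb2a and Tubb2b, and 44.5% for Tubb4b, which shares most with its pseudogene Tubb4b-ps1. It was 99.9% for Tubb5 and 100% for Tubb6. With windows of 100 bases it was 87.7% for Tuba3a and 88.2% for Tuba3b. Read length is not given in the sources used here, and the split of reads within the Tuba3, Tuba1 and Tubb2 pairs or trios is therefore uncertain. Their sums are less so, but genes outside these groups share windows too. Of 1754 windows of 50 bases in Tuba1a, 817 also occurred in AC157548.1, as did 965 of 1694 in Tuba1b. Gm5366 held 59 of 1460 in Tuba3a, and Tubb2a-ps2 held 369 of 2133 in Tubb2b.

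The testis-type genes stood apart from the other listed tubulins, with the knockout far below wild type for both genes. Tuba3a (chromosome 6, 125278274 to 125286042, minus strand) had 49.3, 49.1 and 54.9 CPM in knockout libraries, against 94.96, 104 and 100.1 CPM in wild-type libraries. Every knockout library lay far below every wild-type library. The mean was 51.1 ± 3.27 CPM in knockout cells and 99.7 ± 4.50 CPM in wild-type cells (SD, n = 3 each), a log2 fold change of -0.95 (SE 0.0545). The knockout level was 51.7% of the wild-type level, with an exact 95% interval of 48.2% to 55.3% that covers counting error only, from 1138 reads in knockout and 3062 reads in wild-type libraries. Tuba3b (chromosome 6, 145615757 to 145621479, plus strand) had 2.37, 2.39 and 3.68 CPM in knockout libraries, against 6.97, 5.62 and 5.33 CPM in wild-type libraries. Its groups did not overlap either, but they rest on 64 reads in knockout and 185 reads in wild-type libraries. Its log2 fold change was -0.88 (SE 0.166), and its knockout level was 48.1% of the wild-type level (35.6% to 64.2%). Of 1726 windows of 50 bases in Tuba3b, 473 also occurred in Tuba3a. Whether Tuba3a reads placed on Tuba3b make up its difference was not tested. In the authors' deposited table the log2 fold changes were -0.97 for Tuba3a and -1.06 for Tuba3b.

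Summed, the pair had 51.7, 51.5 and 58.6 CPM in knockout libraries, against 102, 109.5 and 105 CPM in wild-type libraries. Tuba3a carried nearly all of these reads in both groups. Tuba3a lies inside 4930417O13Rik, a transcript of the opposite strand that had 0 reads in all 6 libraries. The 2 genes lie 20.3 Mb apart on chromosome 6. The 3 nearest tested genes on each side of Tuba3a were looked at after the tubulin values were known. These were Vamp1, Tapbpl, Mrpl51, Ltbr, Tnfrsf1a and Plekhg6, 20.5 to 82.0 kb away. None of the 6 passed in limma, with adjusted p between 0.113 for Vamp1 and 0.783 for Mrpl51. The log2 fold changes of the 6 neighbours of Tuba3a lay between -0.30 for Plekhg6 and 0.43 for Vamp1.

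**Figure D1:**
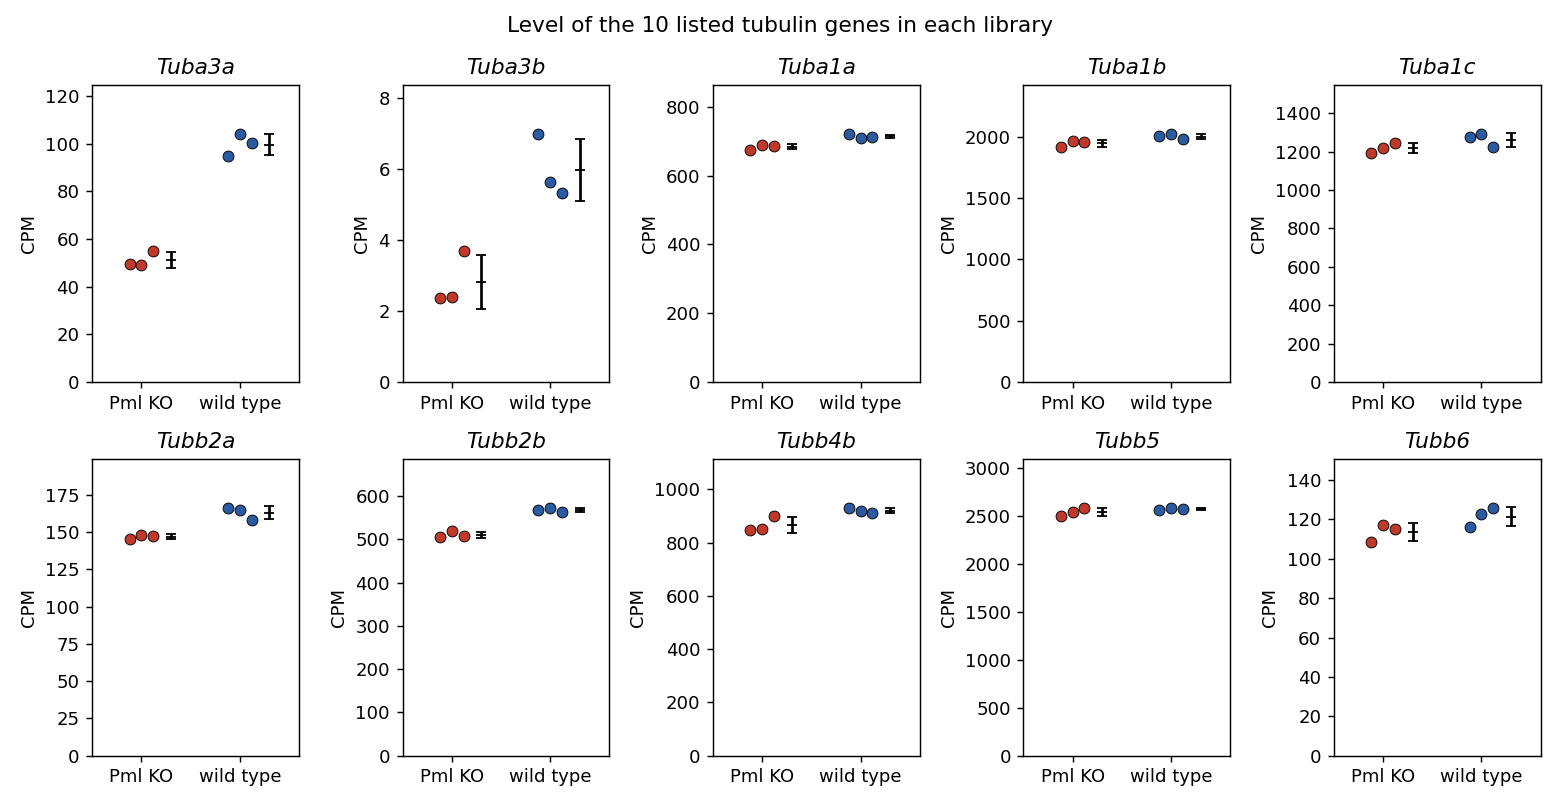
CPM of each listed tubulin gene in the 3 Pml knockout libraries (red) and the 3 wild-type libraries (blue), each panel with its own linear axis from 0; the bar beside the points is the mean ± SD. Tuba3a sits at 49.1 to 54.9 CPM in knockout and 94.96 to 104 CPM in wild-type libraries, while the groups of Tuba1c, Tubb5 and Tubb6 overlap.

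The values of both testis-type genes were lower in the knockout, although those of Tuba3b may include Tuba3a reads. Because both values were lower, the stretch before the annotated start of Tuba3a is printed. It is the 250 bases upstream of the RefSeq start (GRCm38.p6, chr6:125286082-125286331, minus strand), with capitals marking TTCCCGC, the core of a site that E2F factors can bind, and CCAAT, the box bound by NF-Y.
Tuba3a: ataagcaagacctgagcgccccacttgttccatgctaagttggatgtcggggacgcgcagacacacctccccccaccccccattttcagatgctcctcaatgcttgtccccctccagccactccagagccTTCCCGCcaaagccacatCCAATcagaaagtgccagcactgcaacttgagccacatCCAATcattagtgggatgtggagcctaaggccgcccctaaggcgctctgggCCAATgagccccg
The 30 bases around TTCCCGC, which in both genes lie before the RefSeq start, matched the other gene at 27 positions, at chr6:125286174-125286203 (minus strand) and chr6:145615854-145615883 (plus strand).
Tuba3a block: ccTTCCCGCcaaagccacatCCAATcagaa
Tuba3b block: ccTTCCCGCcaaatttacatCCAATcagaa
The Tuba3b block lies before the RefSeq start but inside the GENCODE span of Tuba3b given above, because the annotations place the start of that gene differently. The block was located in both genes by TTCCCGC and the bases just before it, so those of the 27 matches were fixed in advance. The 250-base windows of the pair were 69.2% identical. Tuba3a held 3 CCAAT boxes and Tuba3b held 2, all on the sense strand. Over 32851 RefSeq promoter windows of this length, searched on both strands, 33.9% held CCAAT, 3.82% held TTCCCGC, 22.8% held TATAA and 6.02% held CACGTG. The motifs were chosen after the sequences were seen, and no match overlapped another in the listed genes. Of the 8 listed genes with a window in the table, Tuba3a and Tuba3b were the 2 with TTCCCGC, whereas CCAAT also occurred in Tuba1a, Tuba1c, Tubb4b (5 matches) and Tubb5, and TATAA in Tuba1a and Tubb2a. CACGTG occurred in Tubb5. The Tuba3a window held 8 CpG and the Tuba3b window 14, against a median of 6 over all windows and 35 for Tuba1b. These matches describe letters and not binding.

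The Tuba1 genes, which supply most alpha-tubulin message in these cells, differed little between groups. They lie together on chromosome 15, with gaps of 15.3 kb between Tuba1b and Tuba1a and 76.2 kb between Tuba1a and Tuba1c. Tuba1a, a major alpha-tubulin of the developing brain, had 676, 689.6 and 687 CPM in knockout libraries, against 720.1, 710.2 and 713 CPM in wild-type libraries. The groups did not overlap, yet the log2 fold change was only -0.06 (SE 0.0258). Tuba1b, the alpha-tubulin of most dividing cells, had 1912, 1964 and 1958 CPM in knockout libraries, against 2004, 2018 and 1979 CPM in wild-type libraries. Its groups also lay apart, by less than the range within either group, with a log2 fold change of -0.04 (SE 0.0221). Tuba1c had 1192, 1219.7 and 1247 CPM in knockout libraries, against 1276, 1290.4 and 1223 CPM in wild-type libraries, and here the groups overlapped. Summed over the trio, knockout cells had 3848 ± 60.7 CPM and wild-type cells 3978 ± 55.3 CPM (SD, n = 3 each), so the knockout level was 96.7% of the wild-type level (95.8% to 97.5%, exact 95% bounds for counting error). None of the 3 genes was called, although Tuba1a and Tuba1c were with the replicate number as a block.

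Among the 5 listed beta-tubulins the Tubb2 pair was lowest relative to wild type. Tubb2a and Tubb2b are most abundant in brain and lie 48.7 kb apart on chromosome 13. Tubb2b had 504, 519 and 508 CPM in knockout libraries, against 567, 572 and 562 CPM in wild-type libraries. Tubb2a had 145, 148 and 147 CPM in knockout libraries, against 166, 165 and 158 CPM in wild-type libraries. Neither gene's groups overlapped, and the log2 fold changes were -0.15 for Tubb2a (SE 0.0384) and -0.15 for Tubb2b (SE 0.0274). The knockout level of the summed pair was 89.9% of the wild-type level (88.0% to 91.8%).

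The 3 remaining beta-tubulins differed less. Tubb4b, a widely used isotype also found in cilia, had 846, 850.0 and 899.8 CPM in knockout libraries, against 929, 919 and 911 CPM in wild-type libraries. Knockout replicate 3 lay close to the wild-type libraries while the other two lay lower, and the log2 fold change was -0.09 (SE 0.0267). Tubb5, the main beta-tubulin of dividing cells, had 2496, 2542 and 2577 CPM in knockout libraries, against 2565, 2579.5 and 2571 CPM in wild-type libraries. Those groups overlapped, and the log2 fold change was -0.02 (SE 0.0212). Tubb6, a widely transcribed minor isotype on chromosome 18, had 108, 117 and 115 CPM in knockout libraries, against 116, 123 and 126 CPM in wild-type libraries. Its groups overlapped too (log2 fold change -0.10, SE 0.0446).

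All 10 listed genes passed the filter and entered the fit. All 10 log2 fold changes lay below 0, as did 48.6% of those over all tested genes. Copies that share windows are not separate observations. The median of the 10 was -0.09, or -0.08 without Tuba3a and Tuba3b, against 0.00463 over all tested genes. In 7 of the 10 every knockout library lay below every wild-type library, as in 15.0% of all tested genes. Tuba3a, Tuba3b, Tubb2a, Tubb2b and Tubb4b, 5 of the 10, were called lower by limma, where 7.49% of all tested genes were; because the genes were chosen with this comparison in view, nothing is read from that share. Without wild-type replicate 1 the count was 3, since Tubb2a and Tubb4b were then not called. Tubb4b was also not called without knockout replicate 1 or 2 or without wild-type replicate 2 or 3, with DESeq2, or with no filter on low values. Summed over the 10 genes, tubulin took 8077 ± 135 CPM in knockout cells and 8426 ± 71.0 CPM in wild-type cells (SD, n = 3 each). That is 95.9% of the wild-type level (95.3% to 96.5%, exact 95% bounds for counting error), and 96.4% without Tuba3a and Tuba3b. The alpha genes summed to 95.5% and the beta genes to 96.2% of the wild-type level.

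**Figure D2:**
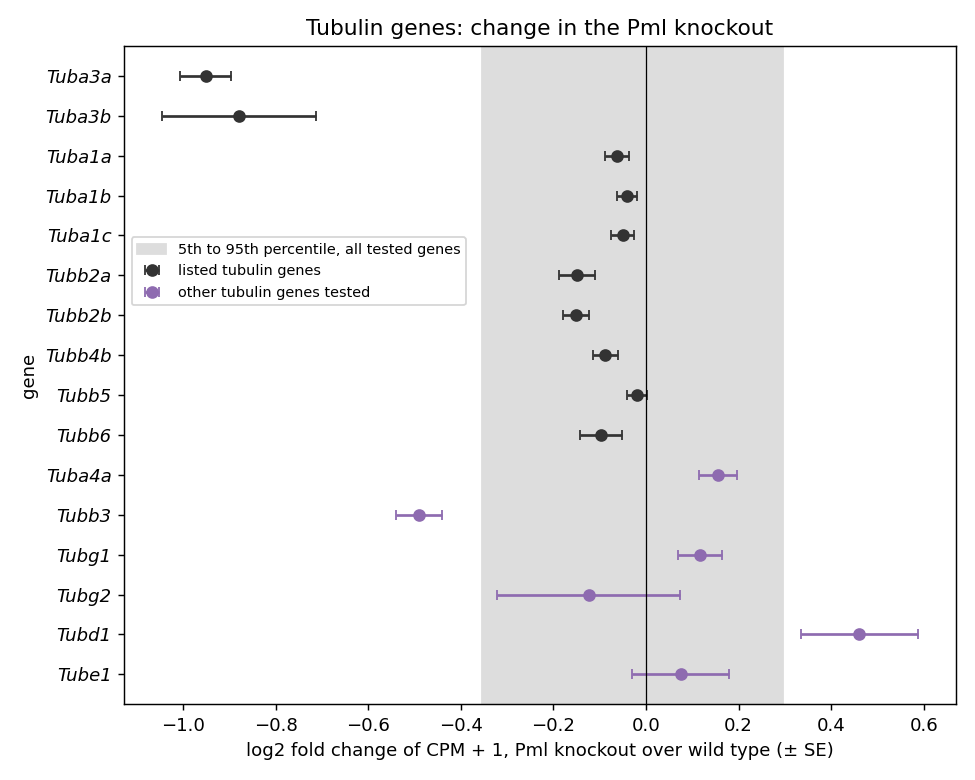
Log2 fold change of CPM + 1, Pml knockout over wild type, with its SE, for the 10 listed tubulin genes (black) and the 6 other tubulin genes that were tested (purple); the grey band spans the 5th to the 95th percentile of all tested genes, -0.36 to 0.30. Tuba3a, Tuba3b and Tubb3 lie below the band, Tubd1 above it and the others inside.

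Levels can be compared between genes only per length, so CPM were divided by the mean length of a gene's protein-coding transcripts. On this scale of CPM per kilobase the order was the same in both groups, namely Tubb5, Tuba1b, Tuba1c, Tubb4b, Tuba1a, Tubb2b, Tubb2a, Tubb6, Tuba3a and Tuba3b. Tubb5 stood at 1488 ± 23.6 CPM per kilobase in knockout cells and 1508 ± 4.37 in wild-type cells, and Tuba3b at 1.59 ± 0.422 in knockout cells and 3.36 ± 0.495 in wild-type cells (SD, n = 3 each). In knockout cells no neighbours in the order overlapped between libraries. Tubb6 stood at 64.5 ± 2.57 CPM per kilobase in knockout cells and 69.1 ± 2.83 in wild-type cells, and Tuba3a at 33.9 ± 2.17 in knockout cells and 66.0 ± 2.98 in wild-type cells. The libraries of these genes overlapped in wild-type cells, so their order there is not settled. The first place depends on the length used for Tubb5, 1705.5 bases as the mean of its transcripts and 2649 bases for the longest. With the longest transcript Tubb5 had 958 CPM per kilobase in knockout cells and 971 in wild-type cells and ranked below Tuba1b in both.

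Per kilobase, Tuba3a and Tuba3b together made up 1.65 ± 0.105% of the listed alpha-tubulin level in knockout cells and 3.08 ± 0.111% in wild-type cells (SD, n = 3 each). Of all 10 genes, Tubb5 held 32.6 ± 0.0452% of the level in knockout cells and 31.7 ± 0.234% in wild-type cells. Tuba1b held 24.4 ± 0.195% in knockout cells and 24.1 ± 0.0445% in wild-type cells, and Tubb2b held 5.12 ± 0.0878% in knockout cells and 5.45 ± 0.0111% in wild-type cells. How reads that match several genes were counted is not given. Windows of 50 bases found in no other gene made up 16.9% to 39.0% of the Tuba1 transcripts. That share was 64.7% for Tuba3a, 70.5% for Tuba3b and 99.9% for Tubb5. The order and the shares of different genes are therefore uncertain.

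**Figure D3:**
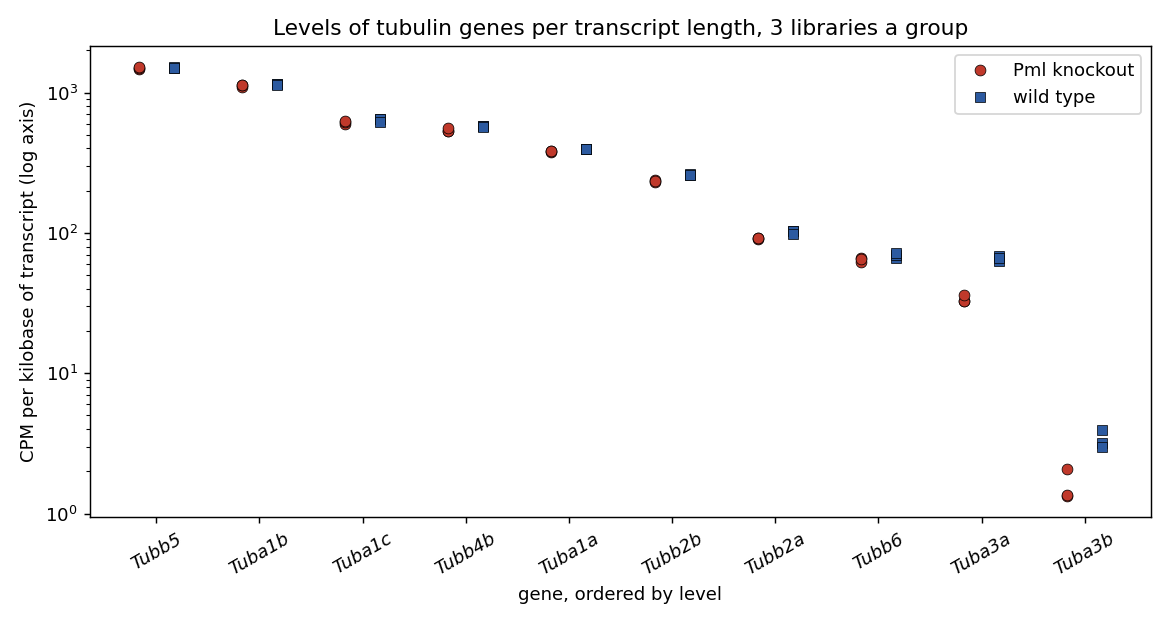
Level of each listed tubulin gene in CPM per kilobase of mean transcript length, on a log axis, in the 3 Pml knockout (red circles) and 3 wild-type libraries (blue squares). Mean levels run from 1488 CPM per kilobase for Tubb5 to 1.59 for Tuba3b in knockout cells and from 1508 to 3.36 in wild-type cells, and the groups separate visibly for Tuba3a and Tuba3b.

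Of the 10 tubulin genes outside the listed set 6 could be tested, of which 2 were higher, 1 was lower and 3 did not pass (14.0% of all tested genes were called; median log2 fold change 0.10). Tubb3, the beta-tubulin that marks neurons, fell: it had 76.5, 71.3 and 74.7 CPM in knockout libraries, against 111, 103 and 100.4 CPM in wild-type libraries (log2 fold change -0.49, SE 0.0492, limma adjusted p = 1.43e-08). Tuba4a, an alpha-tubulin gene that encodes no C-terminal tyrosine, rose: it had 135, 135 and 144 CPM in knockout libraries, against 121, 125 and 125 CPM in wild-type libraries (log2 fold change 0.16, SE 0.0412, limma adjusted p = 0.0102). Tubd1, the delta-tubulin of centrioles, rose to 9.48 ± 0.262 CPM in knockout cells, against 6.62 ± 0.642 CPM in wild-type cells (SD, n = 3 each; log2 fold change 0.46, SE 0.126, limma adjusted p = 0.0124). For each of the 3 the groups did not overlap, and the same held for Tubg1, which did not pass. Every knockout library lay above every wild-type library in 15.1% of all tested genes, and below in 15.0%.

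Tuba4a was not called without knockout replicate 3 (adjusted p = 0.0792) or wild-type replicate 1 (0.0611), and Tubd1 without wild-type replicate 1 (0.0570) or 3 (0.0624), which leaves 1 call, Tubb3, without wild-type replicate 1. Tuba4a overlaps Stk16 on the opposite strand, which stood at 36.8 ± 1.93 CPM in knockout cells and 36.4 ± 3.23 CPM in wild-type cells. The gamma-tubulins nucleate microtubules, and Tubg1 stood at 88.1 ± 2.59 CPM in knockout cells and 81.2 ± 1.77 CPM in wild-type cells without passing (limma adjusted p = 0.102). Tubg2 and the centriolar Tube1 did not pass either, at 2.25 and 13.1 CPM in knockout cells and 2.47 and 12.4 CPM in wild-type cells. Tubb4a had 15 reads, Tuba8 had 2, Tubb1 had 1 and Tubal3 had 0 over the knockout libraries. Over the wild-type libraries Tubb4a had 8 reads, Tuba8 had 9, Tubb1 had 0 and Tubal3 had 1, so these genes were left out of the test.

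Among genes that fold tubulin or tune its message, all 23 were tested, and 2 were lower, 21 did not pass and 0 were higher (8.70% called, against 14.0% of all tested genes), with a median log2 fold change of -0.03. Ttc5, the factor that recognises nascent tubulin, fell to 41.3 ± 2.62 CPM in knockout cells, against 48.3 ± 1.55 CPM in wild-type cells (log2 fold change -0.22, SE 0.0634, limma adjusted p = 0.0175). Cct7, a subunit of the chaperonin that folds tubulin and actin, fell to 677 ± 3.67 CPM in knockout cells, against 716 ± 9.99 CPM in wild-type cells (log2 fold change -0.08, SE 0.0259, limma adjusted p = 0.0333). Neither call stood without knockout replicate 3 or without wild-type replicate 1, with adjusted p of 0.117 and 0.0998 for Ttc5 and 0.0669 and 0.156 for Cct7. Cct7 also missed without knockout replicate 1 (0.0721), wild-type replicate 2 (0.0554) or wild-type replicate 3 (0.0901).

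Of 27 tubulin-modifying enzymes 17 were tested, of which 2 were higher, none was lower and 15 did not pass (11.8% called, against 14.0% of all tested genes; median log2 fold change 0.08). Hdac6, a deacetylase of alpha-tubulin, rose: it had 115, 115 and 119 CPM in knockout libraries, against 105, 99.95 and 101 CPM in wild-type libraries (log2 fold change 0.18, SE 0.0431, limma adjusted p = 0.00360). Agtpbp1, which removes glutamates from tubulin tails, rose to 27.6 ± 1.12 CPM in knockout cells, against 23.0 ± 1.14 CPM in wild-type cells (log2 fold change 0.25, SE 0.0792, limma adjusted p = 0.0311). Agtpbp1 was not called without knockout replicate 3 (0.125), wild-type replicate 2 (0.117) or wild-type replicate 3 (0.106), which leaves 1 call in the list.

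Of 26 microtubule-associated proteins 23 were tested, of which 2 were higher, 2 were lower and 19 did not pass (17.4% called, against 14.0% of all tested genes; median 0.03). Mapt, which encodes tau, had 13.6, 12.5 and 12.4 CPM in knockout libraries, against 9.96, 7.94 and 6.50 CPM in wild-type libraries (log2 fold change 0.62, SE 0.128, limma adjusted p = 0.00117). Map4, a widely expressed stabiliser of microtubules, rose by 0.10, while Map1a, a neuronal associated protein, fell by 0.29 and Camsap3, which binds minus ends, fell by 0.16 on the log2 scale. Their limma adjusted p was 0.0157 for Map4, 0.0112 for Map1a and 0.0186 for Camsap3. Map4 was not called without knockout replicate 3 (0.0507), wild-type replicate 2 (0.0792) or wild-type replicate 3 (0.0630). Map1a was not called without wild-type replicate 2 (0.0650) or 3 (0.0514), nor Camsap3 without knockout replicate 1 (0.0526), knockout replicate 3 (0.0567) or wild-type replicate 3 (0.127). The list's count was 1, Mapt, without wild-type replicate 3. Leaving out knockout replicate 3 or wild-type replicate 2 gave 2.

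Among microtubule destabilisers and severing enzymes, 16 in the list, 1 of 12 tested was lower and 0 were higher (8.33% called, against 14.0% of all tested genes, median -0.00). That was Stmn2, a stathmin of neurons that binds free dimers, with 226, 229 and 244 CPM in knockout libraries against 280.0, 292 and 301 CPM in wild-type libraries (log2 fold change -0.32, SE 0.0362, limma adjusted p = 1.42e-07). Without knockout replicate 2 the count was 2. In the nucleation list 1 of 19 tested was lower and 0 were higher (5.26% called, against 14.0% of all tested genes, median 0.03). Haus2, of the augmin complex, fell by 0.19 on the log2 scale (limma adjusted p = 0.0196) and was not called without knockout replicate 2 (0.0568), wild-type replicate 1 (0.0513) or wild-type replicate 2 (0.104).

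**Figure D4:**
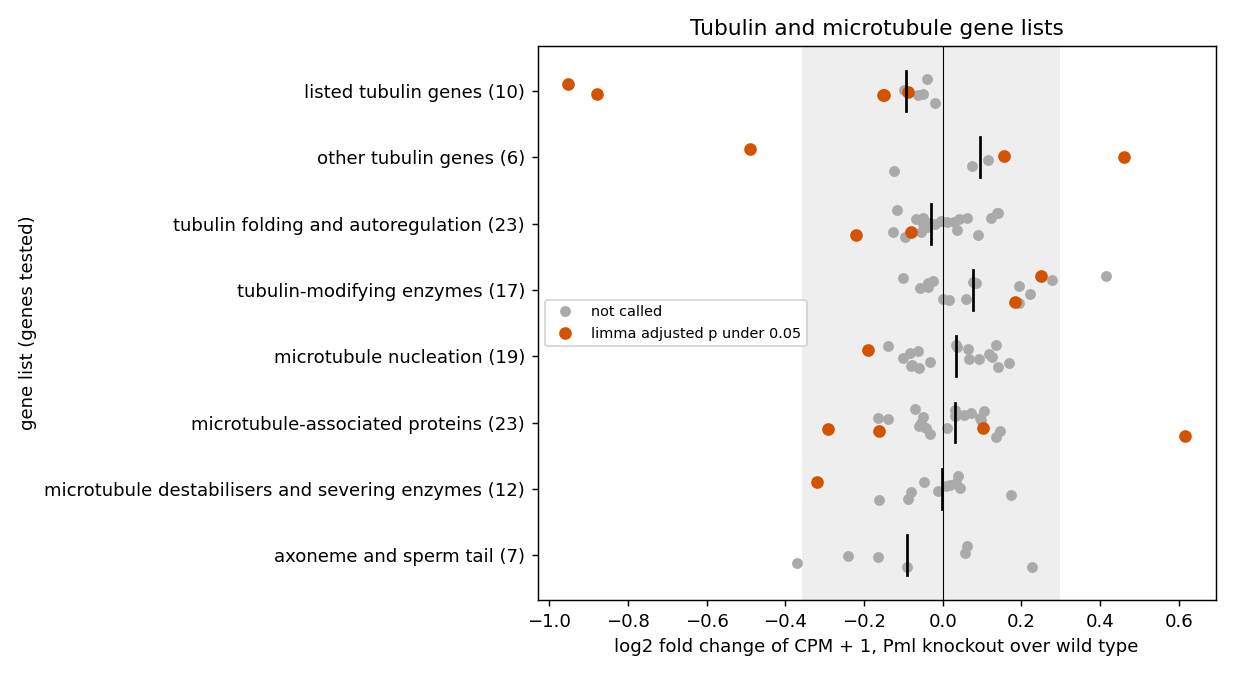
Log2 fold change of CPM + 1, Pml knockout over wild type, of the tested genes of each tubulin or microtubule list; each point is a gene, orange where the limma adjusted p was under 0.05, the black bar is the list's median and the grey band spans -0.36 to 0.30, the 5th to the 95th percentile of all tested genes. The medians lie between -0.09 and 0.10, and Tuba3a and Tuba3b are the 2 points farthest to the left.

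Since Tuba3 is testis-type, genes of sperm and of the axoneme were read beside it. Of 22 axoneme and sperm tail genes 7 were tested and 0 were called by limma, where 14.0% of all tested genes were (median log2 fold change -0.09). With 7 genes nothing is read from that difference. The limma adjusted p was 0.0686 for Odf2, a protein of outer dense fibres and centrioles, and 0.0684 for Cfap20, a ciliary protein. Odf2 stood at 249 ± 7.95 CPM in knockout cells and 265 ± 1.99 CPM in wild-type cells, and Cfap20 at 45.7 ± 1.47 CPM in knockout cells and 51.3 ± 2.31 CPM in wild-type cells. At an unadjusted limma p under 0.05 there were 2, while edgeR and DESeq2 called 0. Odf2 was called without knockout replicate 3 (limma adjusted p = 0.0417). Tekt4, Spag6l, Odf1 and Akap4 had 0 reads. Of 16 testis germ cell markers, the spermatid genes Tnp1, Tnp2, Prm1, Prm2 and Acrv1 had 0 reads in all libraries, and the list summed to 58.5 to 61.8 CPM in knockout libraries and 51.3 to 59.1 CPM in wild-type libraries. Of the 6 tested, 2 were higher and 0 lower (33.3% called, against 14.0% of all tested genes). Sycp1 and Sycp3, both of the synaptonemal complex, rose by 0.71 and 0.34 on the log2 scale (limma adjusted p = 0.00197 and 0.0350), against -0.95 and -0.88 for Tuba3a and Tuba3b. The other 4 did not pass, with log2 fold changes of 0.07 for Ddx4, -0.20 for Dazl, 0.50 for Ldhc and 0.17 for Hspa1l. Dazl, the most abundant of the list, stood at 24.2 ± 2.94 CPM in knockout cells and 28.0 ± 3.05 CPM in wild-type cells. Sycp3 was not called without knockout replicate 2 or 3 or without wild-type replicate 1 or 2, with adjusted p up to 0.202.

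Of 13 neuronal markers 9 were tested, and Tubb3, Stmn2, Nefl and Nefm were lower and 0 higher (44.4% called, against 14.0% of all tested genes). Tubb3 and Stmn2 were already counted in the lists of other tubulin genes and of destabilisers. The 5 that missed the threshold were Map2, Elavl3, Gap43, Ina and Syp. Syp, a synaptic vesicle protein, stood at 1.37 ± 0.216 CPM in knockout cells and 0.635 ± 0.313 CPM in wild-type cells (limma adjusted p = 0.0937). For Syp every knockout library lay above every wild-type library, as in 15.1% of all tested genes. Its values rest on 30 reads in knockout and 20 reads in wild-type libraries. The list summed to 338 to 358 CPM in knockout libraries and 486 to 500.0 CPM in wild-type libraries. Nefl and Nefm, the light and medium neurofilament genes, had log2 fold changes of -1.55 and -2.38 (limma adjusted p = 1.29e-16 and 6.11e-16). Nefl lies inside the annotated span of Nefm, on the opposite strand, so these calls may not be separate. The defining neuronal genes Dcx and Snap25 had 0 reads, and Map2, Elavl3 and Gap43 averaged 1.79 to 2.44 CPM over the 2 groups. Of 10 fibroblast markers, which feeder cells would carry, 4 were tested and all 4 passed, where 14.0% of all tested genes did, 2 higher (Fn1 and Pdgfrb) and 2 lower (Vim and Thy1). Pdgfrb was not called without knockout replicate 2 (adjusted p = 0.113) or wild-type replicate 3 (0.0883). S100a4, Postn and Twist2 had 0 reads, Col1a1, Col1a2 and Col3a1 averaged 1.02 CPM at most in either group, and the list summed to 1341 to 1372 CPM in knockout libraries and 1237 to 1309 CPM in wild-type libraries. The part of these cell types in the tubulin values was not tested.

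Profiles over the 6 libraries were compared with that of Tuba3a and Tuba3b summed, passing over genes without a proper name (Gm with digits, Rik or LOC). Of the remaining tested genes the nearest were Clybl, Tet3, Thy1, Hmga2 and Impact, named in order of likeness. The root mean square difference of centred log2(CPM + 1) was 0.0255 for Clybl, 0.0327 for Tet3 and 0.0923 for Impact. Clybl, a mitochondrial lyase, stood at 11.8 ± 0.619 CPM in knockout cells and 24.3 ± 0.619 CPM in wild-type cells, and Hmga2, a chromatin protein of embryonic cells, at 49.4 ± 1.86 CPM in knockout cells and 98.4 ± 4.56 CPM in wild-type cells. Tet3, which oxidises methylated cytosine, stood at 6.27 ± 0.489 CPM in knockout cells and 12.9 ± 0.265 CPM in wild-type cells. With 2 groups, such likeness mostly reflects a similar fold between them.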

How the data were processed

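The submitters' processing notes name cutadapt, TopHat with mm10, and edgeR; versions, annotation, counter and strandedness are not given there. The authors deposited 1 table of CPM per library, with a log2 fold change, p-value and FDR per gene. In every library 100% of the CPM values came out as whole reads within 0.01 of a read. Of 25833 rows, 1097 without values and 315 identical repeats were removed.

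The test was limma 3.58.1 (trend option) on log2(CPM + 1), 6 libraries and no covariates, over 12435 genes that passed filterByExpr run on whole reads, with Benjamini-Hochberg adjustment over all of them. edgeR 4.0.16 (quasi-likelihood) and DESeq2 1.42.0 on recovered reads were alternatives; edgeR called 1820 genes. The fit was tested on simulated data. In the smallest library 3 reads equal 0.513 CPM, so differences among genes near that level were not detectable.

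Coordinates, lengths and coding sequences come from GENCODE M21 (mm10), and promoters from RefSeq (GRCm38.p6). Within groups the chi-square per degree of freedom between libraries was 1.33 to 1.64, above sampling noise. All 6 libraries were counted, although such values do not show separate cultures and could be technical. Genes and lists were chosen with earlier results of these data known. Named genes were the listed tubulins, Pml, the other tubulin genes, up to 4 called genes per further list with the largest absolute change (or the 2 most abundant), and the 5 nearest profiles. For the profiles, rows without a name and symbols of Gm with digits, Rik or LOC were passed over. The neighbours and overlapping genes of tubulins were added after values were seen. So were list members named at 0, at low level or as not passing. Some sequences and neighbouring genes are not reported here.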

Additional observations from a re-analysis of the deposited data

How the results depend on the processing

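The log2 fold change of each listed tubulin gene stayed below 0 under all 13 alternatives, between -1.003 and -0.92 for Tuba3a and between -1.07 and -0.73 for Tuba3b. Since these genes were chosen on this comparison, that is a description and no support. With 1 library left out, 3 to 5 of the 10 were called. With the replicate number as a block, 7 of the 10 tubulins (Tuba1a and Tuba1c added) and 2337 genes in all were called. The numbers do not show paired samples: same-numbered libraries had correlations of deviations of 0.0755, 0.0603 and 0.0136, each the highest for its library, a hint from the data and not from the design. Under the block 2 axoneme genes, 2 stem cell markers, 2 destabilisers, 2 nucleation genes and 5 folding genes were called; under TMM scaling or edgeR 2 destabilisers were. With DESeq2 on recovered reads 796 genes were called, 333 higher and 463 lower, with 4 of the 10 tubulins (Tubb4b lost) and 1 other tubulin (Tubb3). DESeq2 also called 0 folding, 1 modifying, 0 nucleation, 1 associated protein, 1 testis and 3 fibroblast genes (Pdgfrb lost). With no filter on low values 4 of the 10 tubulins (Tubb4b lost), 1 folding, 1 modifying and 1 testis gene were called. The counts there were 2 for other tubulins, without Tubd1 (limma adjusted p = 0.0520), and 3 for fibroblast genes, without Pdgfrb (0.0613). With 1 library left out, called genes ranged from 1160 to 1852 (512 to 872 higher, 632 to 980 lower), and called members from 1 to 3 for other tubulins, 0 to 3 for folding, 1 to 3 for modifying, 0 to 1 for nucleation, 1 to 5 for associated proteins, 1 to 2 for destabilisers, 0 to 1 for axoneme and 1 to 2 for testis genes. The cause was not tested. Depth limits Tuba3b most, with 64 reads in knockout and 185 in wild-type libraries.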
